A study of Saccharomyces cerevisiae with 1245 samples.

Results

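The 56 ribosome biogenesis genes described here code for proteins that build the ribosome without being part of it. They were chosen by name, and each was represented by a promoter window that ran from 700 bp upstream to 100 bp downstream of its coding start on the R64 assembly. All 56 were found among the 6002 protein-coding genes of the annotation, and the other 5946 coding promoters served as the comparison. By role, 6 genes code for core proteins of the small nucleolar RNA-protein particles (snoRNPs) that guide rRNA modification, 23 for factors of the small subunit precursor and 27 for factors of the large subunit precursor.

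The study mapped proteins on the genome of budding yeast, Saccharomyces cerevisiae, by ChIP-exo, in which an exonuclease trims immunoprecipitated DNA up to the crosslinked protein and so narrows each binding place to a few bases. Per the labels, cells were grown in YPD at 25 °C to an optical density of 0.8 to 1.0 and were crosslinked with 1.0% formaldehyde. Most targets carried a TAP tag that was pulled down with IgG, some were pulled down with an HA-tag antibody or an antibody to the protein itself, and the strain is not given in the sources used here. Of 1245 samples of 793 targets, 1156 had a peak list. The main comparisons used 1115 ChIP-exo libraries of 716 targets from cells without heat shock. A further 22 libraries came from cells heat shocked for 3 or 6 min, and 18 lists came from MNase-ChIP-seq of histones and histone marks. No treatment or mutation other than heat shock was compared.

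Ribosome assembly starts in the nucleolus on the nascent rRNA, where the U3 snoRNP and the UTP proteins form the small subunit processome and further factors fold and cleave the large subunit precursor. In budding yeast these genes are known to be co-regulated with growth and nutrients, and many of their promoters carry the PAC and RRPE elements, which Dot6, Tod6 and Stb3 are known to bind as repressors. Transcription of a coding gene by RNA polymerase II starts from a preinitiation complex of TBP, TFIIA, TFIIB, TFIIE, TFIIF and TFIIH, with TBP delivered by TFIID or SAGA.

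Lists ranged from 1 to 7062 peaks, with a median of 79, so the share of promoters with a peak depended on the list, and shares at the ribosome biogenesis promoters are read beside the share at the other promoters in the same library. The files hold no read depth, and where no peak is listed a protein may still have been bound. All 15 untagged control samples were without a list used here, so no background lists could be set beside these shares. The labels do not say whether replicates were separate cultures, and differences between them may be technical. In total 3125 peak-by-window counts fell in the 56 windows. Of the 716 targets, 211 had a peak at 1 or more of the 56 promoters and 505 at none.

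The ribosome biogenesis promoters held peaks of more targets than most coding promoters, but far fewer than the ribosomal protein promoters. The median was 21.5 distinct targets (quartiles 18.0 and 30.2, lowest 5) at the 56 promoters and 14 (quartiles 6 and 27, range 0 to 591) at the others. At 138 ribosomal protein promoters the median was 62, at 100 further ribosome biogenesis genes it was 18, at 16 RNA polymerase I genes 19 and at 67 mitochondrial ribosomal protein genes 16. The 56 promoters therefore lay close to the other genes of ribosome assembly and well below the genes of the ribosome itself. In all, 47 of the 56 (83.9%) lay above the median of the other promoters, as did 48.0% of the others. By role the medians were 29 at the 6 snoRNP protein genes, 22 at the small subunit genes and 19 at the large subunit genes, with wide overlap between the roles.

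A neighbouring gene shared the window at many of these promoters, and its peaks cannot be told apart from those of the member. The windows of 28 members (50%) overlapped the window of a divergent coding gene, as did 51.1% of the others. Another coding region reached into the window at 46 members (82.1%) and at 73.6% of the others. A tRNA gene lay within 250 bp of 2 member windows. At the 26 members with neither a divergent window nor a tRNA gene the median was 21 targets, against 12 at 2767 other such promoters, so the difference was as large without those neighbours.

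**Figure D1:**
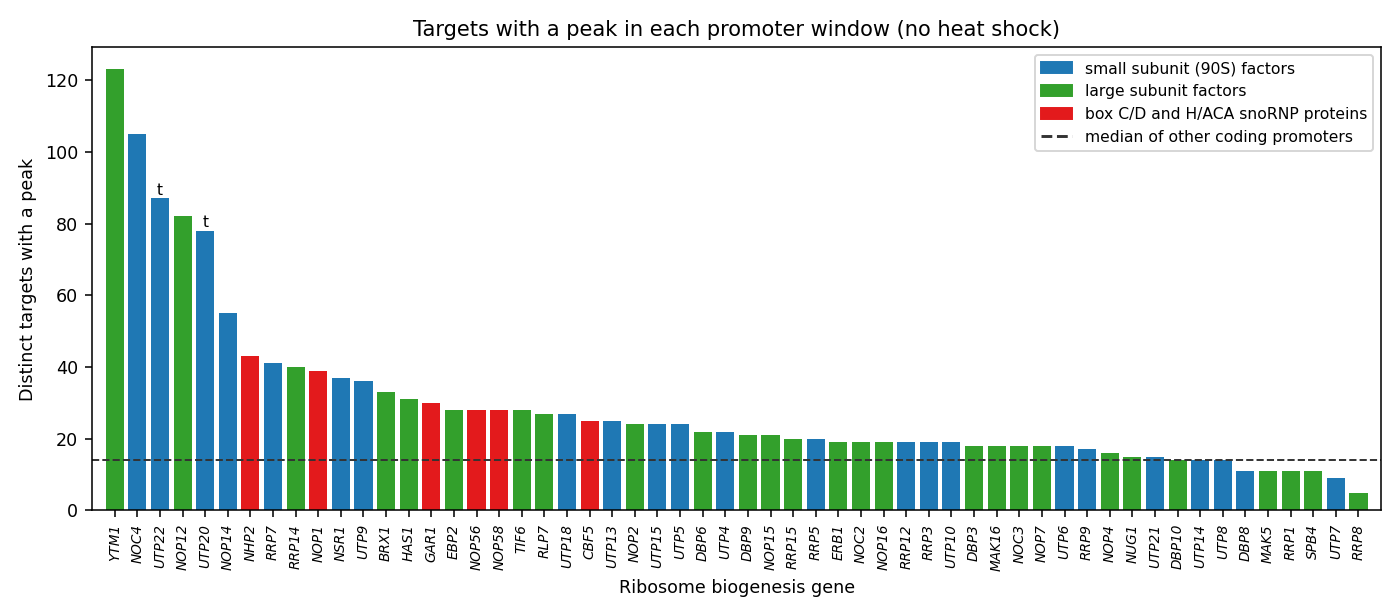
Number of distinct targets with a peak in each of the 56 promoter windows, in libraries without heat shock. Bars are coloured by the role of the gene product, the dashed line is the median of the other coding promoters (14), and the letter t marks the 2 windows near a tRNA gene. YTM1, NOC4, UTP22, NOP12 and UTP20 stand apart at 78 targets or more, and most of the rest lie between 11 and 43.

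The promoter with the most targets was that of YTM1 (chrXV:832113-832913), which codes for a partner of Nop7 and Erb1 in large subunit assembly. It held peaks of 17.2% of the 716 targets, among them 15 of the 16 general transcription factors other than TAFs, all 8 TFIID-only TAFs, 9 RNA polymerase II targets and 12 elongation factors. Its divergent neighbour FSF1, with a coding start 771 bp away, had 121. NOC4 (chrXVI:821323-822123), the partner of Nop14 in small subunit assembly, held 105 targets beside the 110 of its divergent neighbour ASN1, an asparagine synthetase gene. At both loci the counts of the member and of its neighbour were nearly equal.

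UTP22 (chrVII:661658-662458) and UTP20 (chrII:226936-227736), which code for small subunit processome proteins, held peaks of 87 and 78 targets. Each included 17 of the 20 targets of the RNA polymerase III machinery, and each window lay near a tRNA gene. Besides these 2 members, peaks of that machinery occurred only at RRP7, with 1 target. NOP12 (chrXV:252546-253346), whose product binds RNA in large subunit precursors, had 82 targets, with 14 of 17 elongation factors and 9 of 10 RNA polymerase II targets. The coding region of RPS15, a ribosomal protein gene, took up 198 bp of that window. YTM1, NOC4 and NOP12 had 12 to 14 elongation factors each, and no other member had more than 4.

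The next promoters in order were NOP14 with 55 targets, NHP2 with 43, RRP7 with 41, RRP14 with 40 and NOP1 with 39. NOP1 codes for the rRNA methyltransferase of box C/D snoRNPs and NHP2 for a core protein of H/ACA snoRNPs. At the other end, RRP8, which codes for a base methyltransferase of the large subunit rRNA, had 5 targets, and UTP7 had 9. MAK5, RRP1, DBP8 and SPB4 had 11 each. RRP8 and UTP7 were also the only members without a TFIIB peak in 1 of the 3 TFIIB libraries.

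The preinitiation complex was the part of the machinery found most widely at these promoters, but it was not particular to them. Of 16 general transcription factor targets other than TAFs, 15 had a larger share of ribosome biogenesis promoters than of other promoters, with a median share of 62.8% against 36.2%. Tfg2, the exception, had 1 list of 16 peaks and none at a member. At least 10 of the 16 had a peak at 51 members (91.1%) and at 42.8% of the others, and the median number per promoter was 13 against 8. Apart from the regulators named below for their known roles, among them Abf1, the 20 targets with at least 2 libraries and the largest difference between members and others held 14 of this class, 2 of TFIID and 2 of the SWR1 and H2A.Z class, and the others were Rvb1 and Bdf2.

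Sua7, the TFIIB protein, had peaks at 56, 56 and 54 of the 56 promoters in its 3 libraries. The same libraries had peaks at 82.7%, 85.9% and 76.1% of the other promoters. Nearly complete coverage was also seen for 2 TFIIH subunits. Tfb4 had peaks at 54 and 56 members, with 68.4% and 66.3% of the others. Ssl2, the translocase of TFIIH, had peaks at 53 and 54 members, with 57.9% and 58.7% of the others. Both libraries of each subunit gave a higher share at the members, and the gap to the others was many times the difference between the libraries.

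Other TFIIH subunits differed more from library to library. Rad3 had peaks at 56 and 33 members, in libraries with 53.2% and 30.3% of the others. Tfb3 had peaks at 51 and 33 members, with 41.6% and 32.6% of the others. Ssl1 had peaks at 54 and 21 members, with 47.7% and 13.8% of the others. In each pair the library with fewer peaks covered fewer members, and the members' share was above the others' share in every library.

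Kin28, the TFIIH kinase of the polymerase tail, had peaks at 16 and 54 members, with 18.3% and 52.1% of the others. Tfb2 had peaks at 32 and 38 members, with 27.7% and 33.5% of the others. Tfb1 had peaks at 9 and 34 members, with 8.83% and 31.3% of the others. All 3 were above the others in both libraries. Of the TFIIE subunits, Tfa2 had peaks at 55 and 51 members, with 75.2% and 45.4% of the others. TFA1 had peaks at 50, 6 and 50 members, with 56.8%, 7.60% and 58.0% of the others. Tfg1 of TFIIF had peaks at 55 and 13 members, with 66.2% and 9.52% of the others. The short lists of TFA1 and Tfg1, with 374 and 468 peaks, had few peaks at any promoter.

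TBP (Spt15) had peaks at 34, 25 and 7 members, with 29.1%, 20.9% and 9.45% of the others. TOA1, a TFIIA subunit, had peaks at 13, 39 and 10 members, with 13.5%, 29.8% and 14.1% of the others. The members' share was above the others' share in all 3 libraries of each. Cet1, the RNA triphosphatase of mRNA capping, had 1 library, with peaks at 53 members (94.6%) and 54.1% of the others. It was singled out after its values were seen.

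**Figure D2:**
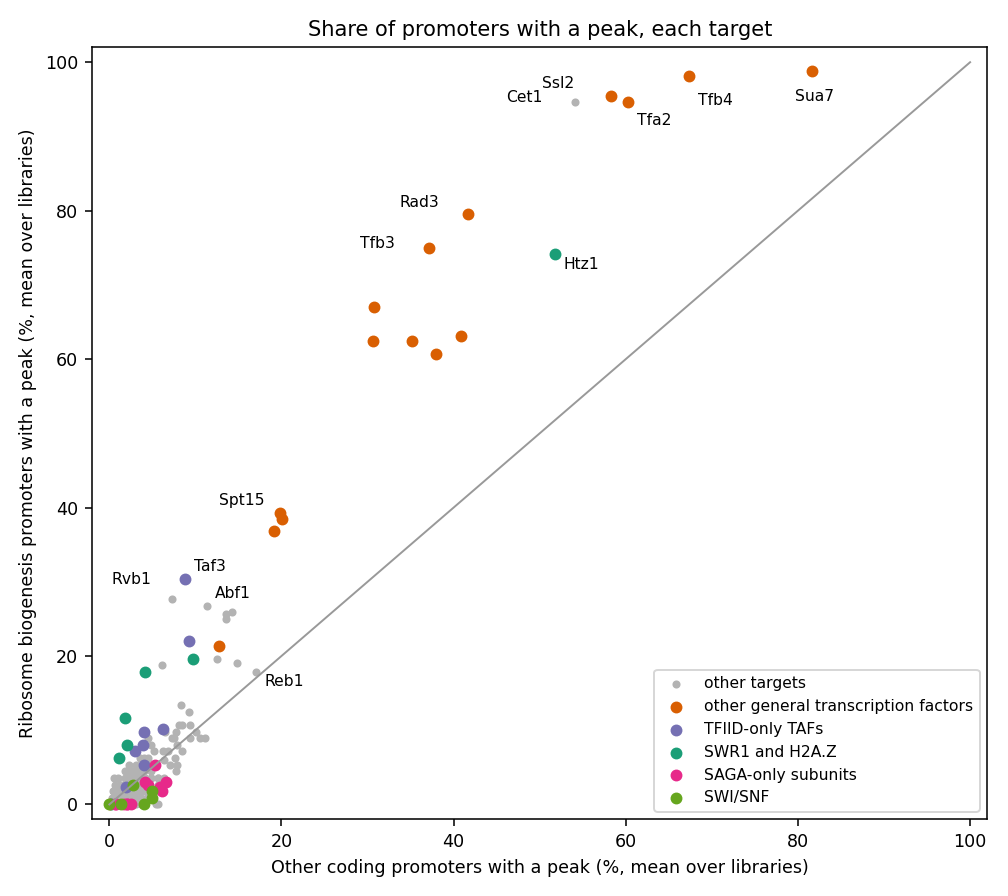
Each point is 1 target, with the percent of other coding promoters with a peak on the x axis and the percent of ribosome biogenesis promoters on the y axis, as means over the target's libraries without heat shock. The line marks equal shares. The general transcription factors and Htz1 lie far above the line, such as Spt15 at 39.3% and Sua7 at 98.8% of members, while SAGA-only and SWI/SNF subunits lie near the bottom of the y axis.

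Peaks of the general transcription factors lay close to the coding start at the ribosome biogenesis promoters. In the 25 libraries of 14 of these targets with a peak at 20 or more members, the median position of the nearest peak ranged from -84.0 to -61.5 bp from the coding start at the members, where negative values are upstream. At the other promoters in the same libraries it ranged from -172 to -86.0 bp. Only the peak nearest to the coding start inside each window was used, so a window with more peaks can give a nearer value. Peaks past 100 bp downstream were not seen. In all 25 libraries the members' median was nearer to the coding start, by 20 to 97 bp. Shorter lists did not all follow this. With 6 to 10 members, the medians at the members were farther upstream for TFA1 replicate 2 (-220 against -108 bp), Tfb1 replicate 1 (-131 against -105 bp) and TOA1 replicate 3 (-222 against -162 bp). For Sua7 the 3 members' medians were -61.5, -64.0 and -70.0 bp, and the others' medians were -86.0, -86.0 and -90.0 bp. The medians of the 3 Sua7 libraries therefore did not overlap between the groups.

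The spread was also narrower at the members. In the first Sua7 library the quartiles were -80.8 and -49.8 bp at 56 members and -156 and -56.0 bp at 4915 other promoters. In the first Tfb4 library they were -82.8 and -55.0 bp at 54 members and -188 and -57.0 bp at 4069 others. The inner quartiles nearly coincided and the outer ones differed. TBP medians were -76.0 and -75.0 bp at the members in the 2 longer lists and -147 and -172 bp at the others. In the list from the Weil Lab antibody, with 7 members, the TBP median was -490 bp, against -244 bp at the others.

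**Figure D3:**
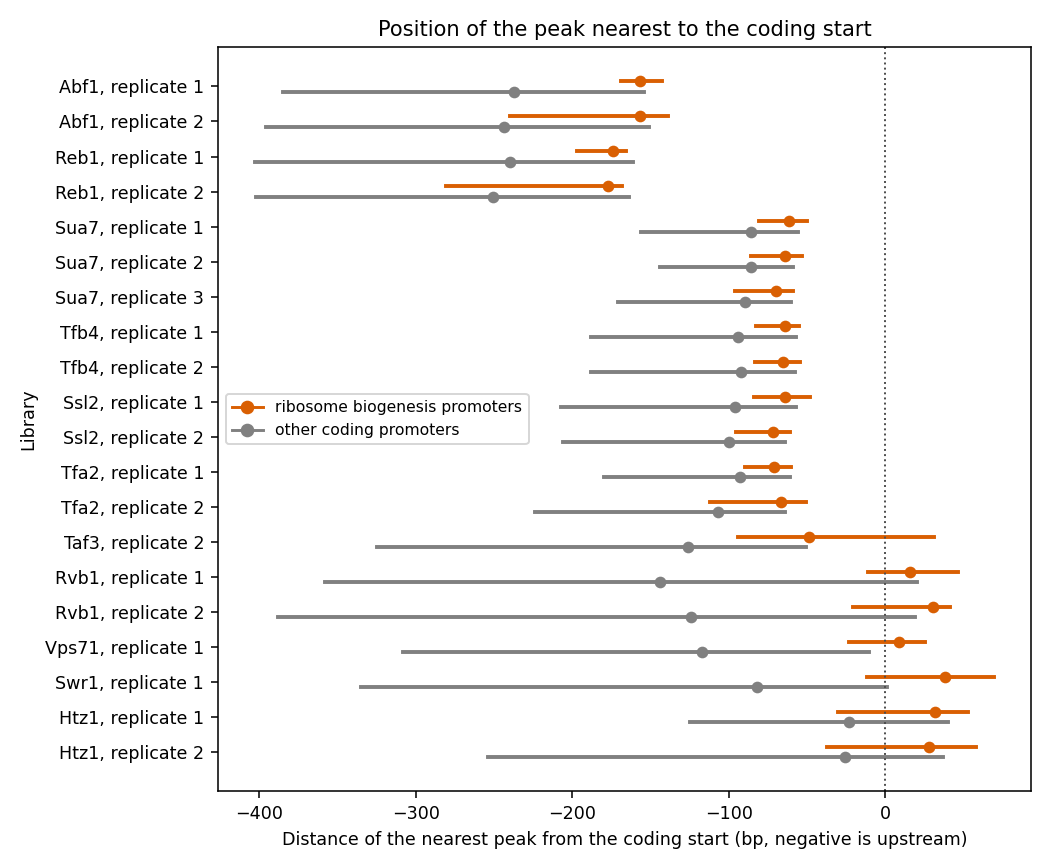
Position of the peak nearest to the coding start, in bp on the x axis with negative values upstream, for the libraries named on the y axis. Points are medians and lines are quartiles, in orange for ribosome biogenesis promoters and in grey for other coding promoters with a peak. Orange points of Sua7, Tfb4, Ssl2 and Tfa2 lie between -72.0 and -61.5 bp, those of Abf1 at -157 bp, and those of Rvb1, Vps71, Swr1 and Htz1 downstream of the start.

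The histone variant H2A.Z was the chromatin target with the widest presence by mean share. Subunits of the SWR1 complex, which places it in nucleosomes, were listed at fewer members and were taken as a class with it. Of 7 targets in this class, 6 had a larger share of members than of others, with a median of 11.6% against 2.01%. Htz1, the yeast H2A.Z, had peaks at 54 and 29 members (96.4% and 51.8%), and at 72.0% and 31.6% of the others. Swr1, the ATPase of the complex, had peaks at 10 and 3 members (17.9% and 5.36%), with 3.31% and 0.420% of the others. Vps72 had peaks at 2 and 5 members, with 0.673% and 1.65% of the others. Htz1, Swr1 and Vps72 were each above the others in both libraries.

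Vps71 had peaks at 20 members (35.7%) in 1 library and at 0 in the other, a list of 84 peaks, with 7.99% and 0.185% of the others. Its higher mean share thus rests on replicate 1, and without that library the difference was -0.185 percentage points. Swc7 had peaks at 9 and 0 members, the second in a list of 14 peaks, with 3.90% and 0.118% of the others. At least 1 of Swr1, Vps71, Vps72 and Swc7 had a peak at 21 members (37.5%) and at 9.38% of the others, and all 4 did at 4 members (7.14%) and 1.23% of the others.

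Rvb1, a helicase shared by the SWR1 and INO80 complexes, had peaks at 19 and 12 members (33.9% and 21.4%), with 6.37% and 8.14% of the others. Bdf2, a bromodomain protein related to Bdf1, had peaks at 9 and 12 members (16.1% and 21.4%), with 7.01% and 5.26% of the others. Both were above the others in each library. None of the 10 INO80 targets had a peak at any of the 56 promoters, and any of them was listed at 4.91% of the others. Their median share of the others was 0.151%.

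These peaks lay at a different place from those of the general transcription factors. At the members the median nearest peak was +32.0 and +28.0 bp from the coding start for Htz1, +16.0 and +30.5 bp for Rvb1 and +38.0 bp for Swr1. In the same libraries the medians at the others were -23.0 and -26.0 bp for Htz1, -144 and -124 bp for Rvb1 and -82.0 bp for Swr1. For Vps71 the medians were +8.50 bp at the members and -117 bp at the others. Bdf2 differed between its libraries, with -25.0 and +30.5 bp at the members and -264 and -92.0 bp at the others. Within windows that end 100 bp downstream, the nearest peaks of Htz1, Rvb1, Swr1 and Vps71 thus centred just inside the coding region at the members. Those of Bdf2 did so in 1 of its 2 libraries.

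The SWR1 targets, Rvb1 and Bdf2 were not spread evenly. RRP7, UTP9 and NOP14 had peaks of 6 of the 7 SWR1 and H2A.Z targets, as did NHP2. Swr1 had a peak in both libraries at RRP7, UTP9 and RRP5, the last a large scaffold protein gene of early assembly. At the other extreme, NSR1, the yeast nucleolin gene, and UTP22 had no peak of the class. Compared with other gene lists, Htz1 had a mean share of 74.1% ± 31.6 (SD, n = 2 libraries) at the members, 72.5% at the other ribosome biogenesis genes, 83.6% at mitochondrial ribosomal protein genes and 15.9% at ribosomal protein genes. Rvb1 had 27.7% ± 8.84 (SD, n = 2) at the members, 18.5% at the other ribosome biogenesis genes and 3.62% at ribosomal protein genes. It had 28.1% at RNA polymerase I genes and 23.1% at mitochondrial ribosomal protein genes. Htz1 and Rvb1 were thus scarcer at ribosomal protein genes than in any of these other lists, and neither was particular to the members. Bdf2 had the opposite order, with 18.8% ± 3.79 (SD, n = 2) at the members, 12% at the other ribosome biogenesis genes and 61.2% at ribosomal protein genes.

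Of the histone marks, H3K4me3, known for its place near the start of transcribed genes, was listed at 34 and 30 members (60.7% and 53.6%), and at 37.5% and 30.4% of the others. It had 1.04 and 0.839 peaks per member window, against 0.551 and 0.427. The other marks and core histones had peaks at 0 to 4 members in lists of 5 to 611 peaks.

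**Figure D4:**
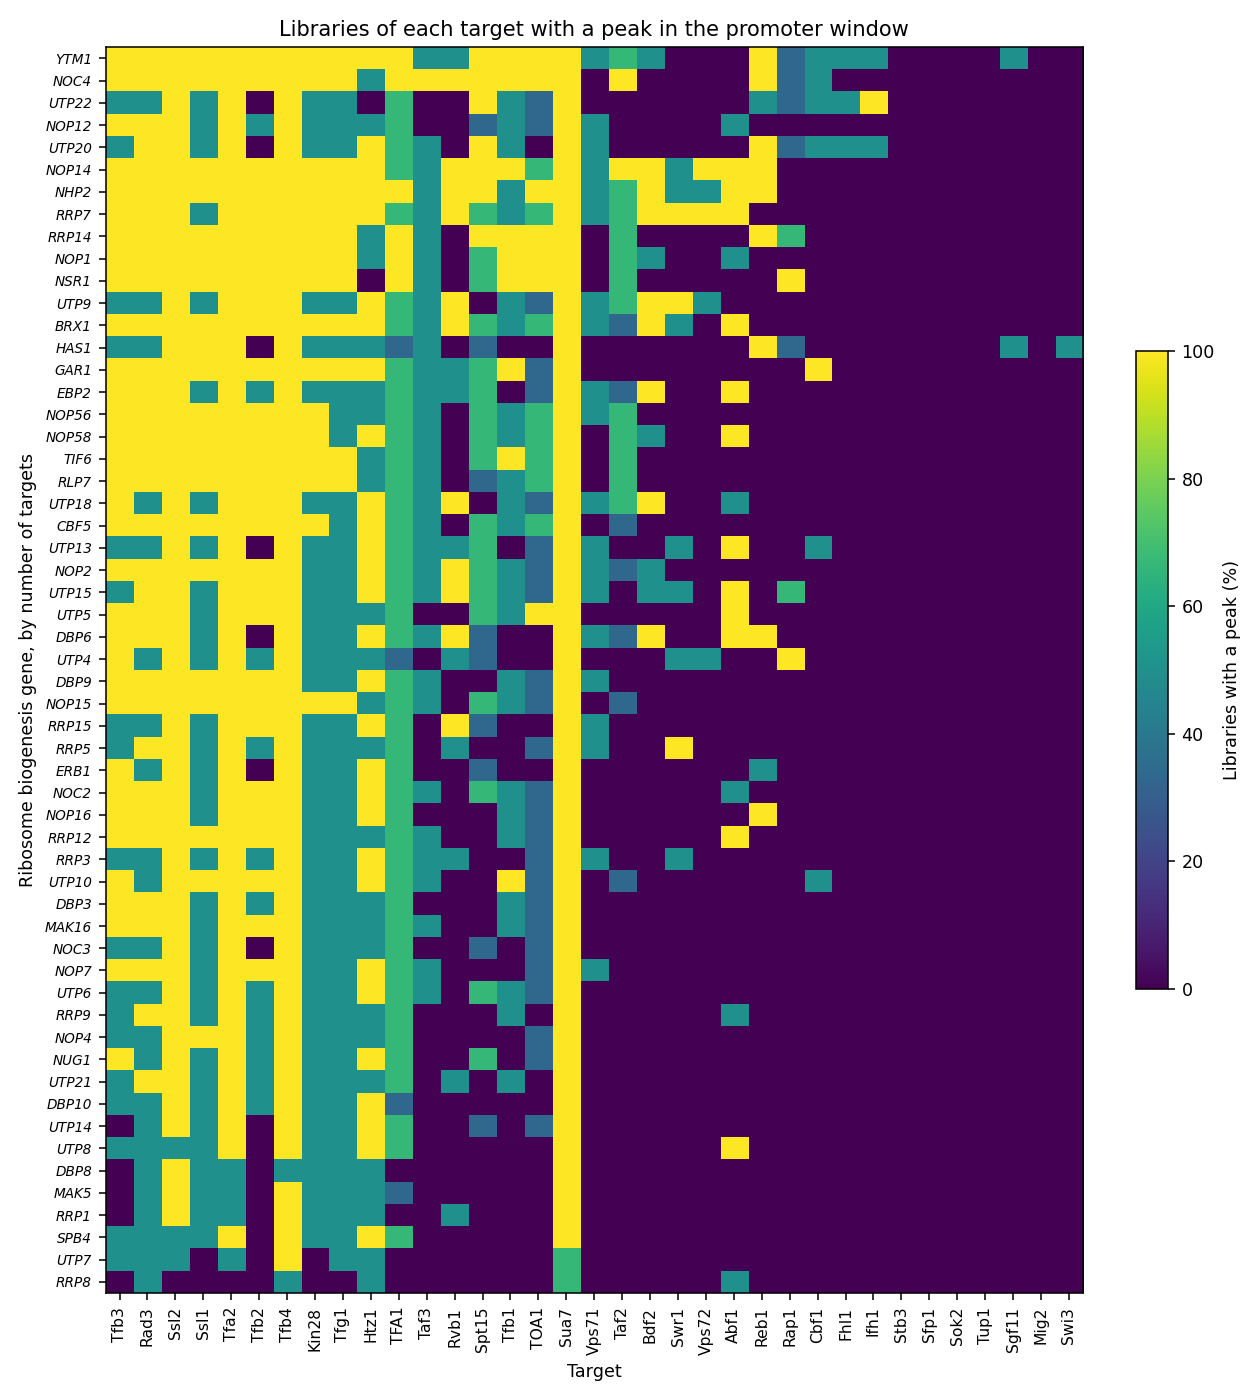
Each row is 1 of the 56 genes, ordered by number of targets, and each column is 1 target. Colour gives the percent of the target's libraries with a peak in the promoter window, from 0 (dark) to 100 (light). Of the general transcription factors, Ssl2, Tfa2, Tfb4 and Sua7 fill almost every row, while Spt15, Tfb1 and TOA1 are empty in many. Rvb1, Bdf2, Swr1 and Abf1 fill scattered rows, and Stb3, Sfp1, Sok2, Tup1 and Mig2 are empty.

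TFIID was listed at more of these promoters than SAGA. As means over libraries, all 8 TFIID-only TAFs had a larger share of members than of others, with a median of 8.93% against 4.01%. Single libraries were less uniform. Taf1, Taf2, Taf3, Taf4, TAF7 and Taf8 each had a library in which the members' share was below the others' share. At least 1 of the 8 TFIID-only TAFs had a peak at 34 members (60.7%) and at 23.6% of the others. A single library, Taf3 replicate 2, had peaks at 33 members (58.9%) and at 14.9% of the others, so the count of 34 rests partly on it. Of 12 SAGA-only subunits, 1 had a larger share of members, 6 had no member peak, and the median share was 0.893% against 3.30%. At least 1 had a peak at 7 members (12.5%) and at 17.6% of the others. Of the 5 TAFs shared by both complexes, 3 had a larger share of members, with medians of 4.76% and 4.81%.

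Taf3 and Taf2 were the TFIID subunits with the largest difference. Taf2 had peaks at 21, 14 and 2 members (37.5%, 25.0% and 3.57%), with 16.3%, 7.03% and 4.39% of the others. In the last library, from the Weil Lab antibody, the members' share was thus below the others' share. Taf3 had peaks at 1 and 33 members (1.79% and 58.9%), with 2.71% and 14.9% of the others. The Taf3 difference rests on replicate 2, a list of 1053 peaks beside one of 147, and was -0.922 percentage points without it. Taf3 had a mean share of 84.1% at ribosomal protein genes, above the members' 30.4%.

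The difference between the 8 TFIID-only TAFs and the 12 SAGA-only subunits was tested at each coding promoter where at least 4 of the 20 targets had a peak. The test was a two-sided exact permutation test over targets with Benjamini-Hochberg adjustment over the 861 promoters tested. TFIID was higher at 304 of these (35.3%) and SAGA at 89 (10.3%). Of the members, 12 were tested and 44 fell below the filter, and TFIID was higher at 8 and SAGA at 0. A promoter with peaks of 4 or more TAFs and few SAGA-only subunits reached the filter only through its TAFs and had to differ. This holds for 7 of the 8 called members, so their p-values and the count of 8 are not read as results. Subunits of a complex are not independent of each other, and the p-values measure the spread over targets only.

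At NOP14, all 8 TFIID-only TAFs and none of the 12 SAGA-only subunits had a peak. The mean share of libraries with a peak was 66.7% against 0%. NSR1 also had all 8 and none, with 58.3% against 0%. NOP1 and NHP2 each had 5 TAFs and no SAGA-only subunit, RRP14 had 5 and 1, and RLP7 and UTP18 had 4 and none. At these promoters the values are a description, with no test.

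NOC4 had peaks of 8 TAFs and of 4 SAGA-only subunits, which reach the filter by themselves. The mean share of libraries was 77.1% against 15.3%, and the adjusted p was 0.00156 in the exact permutation test. At YTM1, 8 TAFs and 6 SAGA-only subunits had a peak, with 60.4% against 27.8% of libraries, and the adjusted p of 0.0676 did not pass. HAS1, an RNA helicase gene, had 1 TAF and 3 SAGA-only subunits, with 6.25% against 11.1% and an adjusted p of 0.893. UTP20 and UTP22 had 2 TAFs each and adjusted p-values of 1.00 and 0.919. The 44 members below the filter had 0 to 3 TAFs, so for most ribosome biogenesis promoters the lists did not allow this test.

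Among the general regulatory factors, Abf1 was listed at the most members. It is known to bind a specific motif and keep promoters free of nucleosomes. Abf1 had peaks at 13 and 17 members (23.2% and 30.4%), and at 10.1% and 12.5% of the others. Both libraries had a peak at 12 members (21.4%) and at 9.80% of the others. The 12 were NOP58 of the box C/D snoRNP, NHP2 of the H/ACA snoRNP, the small subunit genes RRP7, NOP14, UTP5, UTP8, UTP13, UTP15 and RRP12, and the large subunit genes EBP2, DBP6 and BRX1. At the other ribosome biogenesis genes the mean share was 16.0%, at mitochondrial ribosomal protein genes 17.2% and at ribosomal protein genes 7.97%. Abf1 was thus also more frequent at the wider set of assembly genes than at ribosomal protein genes, but not more than at the mitochondrial ones.

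The Abf1 peaks sat at like distances from the coding start. The median nearest peak was at -157 bp at the members in both libraries, and at -237 and -244 bp at the others. At 10 of the 12 repeated members the nearest peak was at the identical base in both libraries. It lay at -157 bp at RRP7, -150 bp at NHP2, -143 bp at NOP14, -169 bp at UTP8 and BRX1, and -139 bp at EBP2. The exceptions were UTP5, at -212 and -318 bp, and NOP58, at -167 and -225 bp.

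Members with an Abf1 peak also more often had a peak of Bdf2, Rvb1 or Taf3. Of the 18 with Abf1 in any library, 10 had Bdf2 (55.6%), as did 3 of the 38 without Abf1 (7.89%). Among the other promoters the shares were 20.8% with Abf1 and 6.58% without. Rvb1 had a peak at 9 of the 18 (50%) and at 11 of the 38 (28.9%), against 26.6% and 6.90% at the others. Taf3 had a peak at 13 of the 18 (72.2%) and at 20 of the 38 (52.6%), against 34.3% and 12.1%. Htz1 differed less, with 100% of the 18 and 94.7% of the 38, against 77.0% and 71.3%. The same order was thus present among the other promoters, and the Rvb1 and Taf3 shares were higher at the members in both strata.

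Reb1, another general regulatory factor, had peaks at 10 members in each of its libraries (17.9%), and at 15.4% and 18.5% of the others. The members' share lay between the shares of the others in the 2 libraries. Both libraries had a peak at 9 members (16.1%) and at 14.9% of the others. Among the 9 were NOP14, NHP2 and DBP6, which also had Abf1 in both of its libraries. At NHP2 the Reb1 peaks lay at -168 and -167 bp, and at NOP14 at -169 and -170 bp. Abf1 or Reb1 had a peak at 26 members (46.4%) and at 28.7% of the others.

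Rap1, the regulator of ribosomal protein genes, had peaks at 3, 4 and 8 members, with 6.29%, 7.06% and 18.2% of the others. Among the members it was in all 3 libraries only at UTP4, at -233 bp in each, and NSR1, at -274, -275 and -275 bp. Rap1 thus had a peak in all 3 libraries at 3.57% of the members and at 6.12% of the others. At ribosomal protein genes its mean share was 86.5%, and at RNA polymerase I genes 29.2%. Tbf1 had a peak at RRP14 only among the members, at -359 and -357 bp, and at 3.70% and 3.45% of the others. Cbf1 had peaks at 1 and 7 members, with GAR1 in both libraries, and at 2.66% and 7.70% of the others. Mcm1 had peaks at 4 and 0 members, and at 7.84% and 1.97% of the others. A peak of at least 1 of the 6 general regulatory factors was listed at 30 members (53.6%) and at 42.9% of the others, which leaves 26 members without a listed peak of these factors.

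None of the known regulators Dot6, Tod6, Stb3 and Sfp1 was listed at these promoters. Their lists covered few of the other coding promoters, though Stb3 and Sfp1 were listed at many ribosomal protein genes. Dot6, with 1 list of 20 peaks, and Tod6, with 1 list of 18, had peaks at 0 of the 56. Stb3 had 83 and 348 peaks and Sfp1, a growth activator, had 199 and 6, and both had 0 of the 56 in each list. The same lists covered 1.51% and 3.40% of the others for Stb3 and 3.75% and 0.151% for Sfp1, shares that amount to few of 56 promoters. Stb3 and Sfp1 had mean shares of 60.5% and 37.0% at ribosomal protein genes. The short lists of Dot6 and Tod6 reached 0.118% and 0.101% of the other promoters and say little about any promoter.

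The other activators of ribosomal protein genes were listed at members about as rarely as at other promoters, or less. Fhl1 had peaks at 0 and 3 members (0% and 5.36%), with 5.26% and 5.95% of the others. Ifh1, its coactivator, had peaks at 3 and 1 members (5.36% and 1.79%), with 7.35% and 5.38% of the others. Hmo1 had peaks at 1 and 0 members, with 3.30% and 1.83% of the others. At ribosomal protein genes the mean shares were 89.5%, 88.0% and 55.1%. All these member peaks fell at UTP20, UTP22 and YTM1, the promoters near a tRNA gene or with the most targets.

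Coactivators and corepressors were listed at few members and at few of the other promoters. The members' shares were slightly below those of the others, and the differences were not tested. Of 24 Mediator targets, 16 had no member peak and 3 had a larger share of members, and any of them had a peak at 5 members (8.93%) and 10.6% of the others. Of 12 RSC targets 10 had no member peak, and any RSC target was listed at 3 members (5.36%) and 8.59% of the others. None of the 6 SWI/SNF targets had a larger share of members, and any was listed at 5 (8.93%) and 11.2% of the others. The Rpd3 deacetylase class had 11 of 13 targets without a member peak, and any was listed at 5 members (8.93%) and 12.6% of the others. The RNA polymerase I machinery, with 15 targets, had no member peak and was listed at 0.505% of the others. Of 20 targets that are themselves ribosome biogenesis proteins 18 had no member peak, and any was listed at 2 members (3.57%) and 1.53% of the others.

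The exact test of RSC against SWI/SNF ran on 304 promoters, where RSC was higher at 9 (2.96%) and SWI/SNF at 142 (46.7%). None of the 56 members had peaks of 4 of these targets, so none was tested. The 5 targets with the lowest difference between members and others were Sok2, Tup1, Sgf11, Mig2 and Swi3. The DNA-binding factors Sok2 and Mig2 and the corepressor Tup1 had peaks at 0 members in both libraries, and at 5.66%, 4.15% and 5.40% of the others on average. Sgf11 of SAGA had peaks at 2 and 0 members, with 9.12% and 3.04% of the others, and Swi3 of SWI/SNF at 1 and 0, with 8.98% and 1.04%.

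RNA polymerase II was listed at these promoters slightly more often than at others. Of 10 polymerase targets, 8 had a larger share of members, with medians of 9.82% and 7.94%, and any was listed at 23 members (41.1%) and 28.4% of the others. Of 17 elongation factors, 13 had a larger share of members, with medians of 4.46% and 2.74%. In the coding region from 100 bp after the start, 10 of 27 polymerase and elongation targets had more peaks per kb at the members than at the others. Spt6, a histone chaperone of elongation, had 0.309 ± 0.169 peaks per kb (SD, n = 2) at the members and 0.202 ± 0.0526 at the others. Leo1 of the Paf1 complex had 0.299 ± 0.381 and 0.126 ± 0.0965, so neither difference exceeded the spread between libraries. The serine 2 form of the polymerase tail (CTDSer2) had 0.00998 ± 0.0141 peaks per kb at the members and 0.0899 ± 0.0175 at the others, with ranges that did not overlap.

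Heat shock was compared in 15 targets, as 16 pairs of a target and an antibody, with 1 to 3 libraries in each condition. TBP showed the largest difference at the members. It had peaks at 34 and 25 members in lists of 1808 and 1337 peaks without heat shock, and at 6 members (10.7%) in a list of 1140 peaks after 3 min of heat shock. The mean share at the members was 52.7% without heat shock, and at the others it was 25.0% without and 16.7% with heat shock. The heat shock library was below both others at the members and at the other promoters. There was 1 heat shock library of TBP, so this difference has no replicate check.

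Of the 25 members with TBP in both libraries without heat shock, 5 (20%) had TBP in the heat shock library. Of 1185 other promoters chosen in the same way, 630 (53.2%) did. The 6 members with TBP after heat shock were UTP20 and UTP22, near tRNA genes, YTM1 and NOC4, with the most targets, and NOP14 and DBP6. TBP is also a subunit of TFIIIB at tRNA genes, and peaks from the 2 sources cannot be told apart in the UTP20 and UTP22 windows. A tRNA gene also lay near 254 of all the other promoters, and these were not set apart in the 53.2%.

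Rpb3, a polymerase subunit, had peaks at 8 and 14 members without heat shock and at 5 after 3 min, while its share of the others went from 12.5% to 15.2%. Rsc9 of RSC had 0 and 0 members without and 3 and 3 with 6 min of heat shock, beside 0.513% and 24.1% of the others. Its lists held 46 and 79 peaks without and 1714 and 1455 with heat shock. Spt7 of SAGA was at 3.57% of members without and 1.79% with heat shock, and at 5.86% and 15.4% of the others. The Rsc9 and Spt7 shares thus differed widely at other promoters and little at the members. In 12 of the 16 pairs the change at the members lay below the change at the others, a count with no test. The members' share was equal in both conditions in 7 of the 16 pairs. Among the 12 were Rsc58 and Sth1, with 0% of members in both conditions, where the share could not fall.

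No promoter was called in the exact sign-flip permutation test of heat shock over targets. Of 1336 promoters tested, 0 were higher (0%) and 0 were lower, 193 had an unadjusted p under 0.05, and the smallest adjusted p was 0.224. Of the 56 members 5 had enough peaks to be tested, and 0 of them had an unadjusted p under 0.05. The TBP values above are a description of single libraries and have no test.

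**Figure D5:**
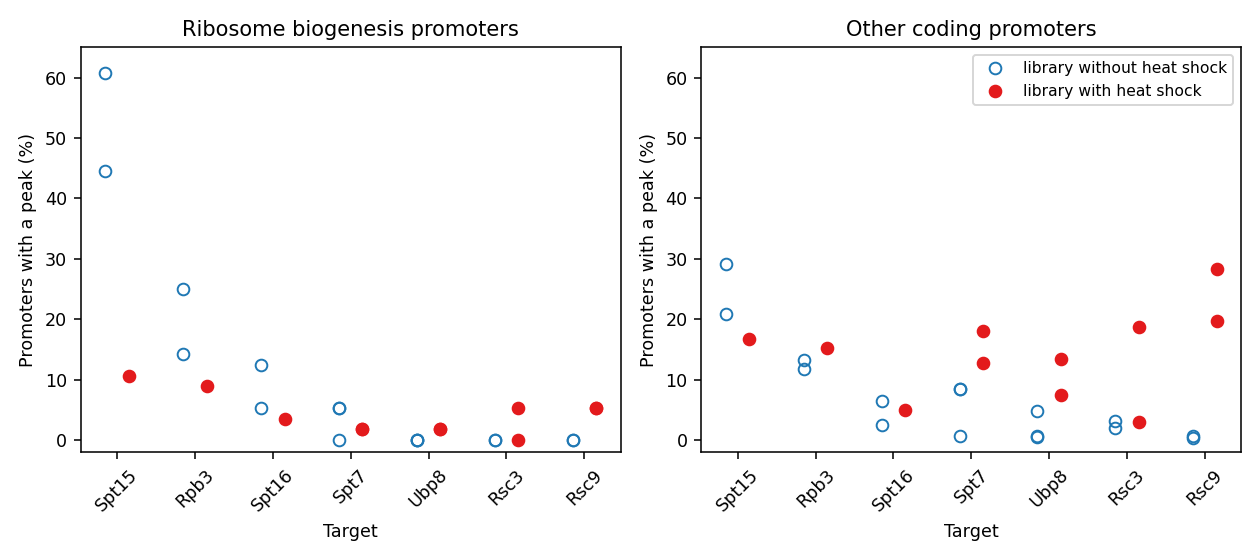
Percent of ribosome biogenesis promoters (left) and of other coding promoters (right) with a peak, for 7 of the targets with heat shock libraries. Open blue circles are libraries without and filled red circles libraries with heat shock of the same antibody, and libraries with equal values overlap. TBP (Spt15) goes from 60.7% and 44.6% to 10.7% on the left, while the red Rsc9 points lie at 5.36% on the left and at 19.8% and 28.4% on the right.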

How the data were processed

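The authors deposited 1 list per library, with a position of 1 bp, the caller name ChExMix and a score from 66 to 1000 for each peak. How the authors defined the score is not given in the sources used here, and 23.8% of peaks had the highest value. The submitters' processing notes name BWA, Picard, SAMtools and the sacCer3 build. A BED end was read as the 1-based position. Gene names, coordinates and strand were taken from RefSeq genes of the R64 assembly (Python 3.11.15, numpy 2.4.6, pandas 2.3.3 and scipy 1.17.1).

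A promoter counted as having a target when a library had a peak in the window. Shares were computed per library and averaged over a target's libraries, every list however short. The tests, TFIID against SAGA, RSC against SWI/SNF and heat shock, were exact permutation tests over targets at each promoter with peaks of at least 4 targets, adjusted by Benjamini-Hochberg at 0.05, and were tested on simulated data. No test was made over the 56 genes as a list. The alternatives changed the window, the peaks, lists, promoters, antibodies and replicates used. The members, target classes, gene lists and tests were chosen with earlier results of these data known. Named targets are the regulators of fixed classes and, among the rest, the 20 targets of at least 2 libraries with the largest difference between members and others and the 5 with the lowest, with members named by number of targets. Swr1, Vps72, Swc7, Cet1, Leo1, Spt6 and others named beside class counts were chosen after their values were seen. Motif counts and promoter sequences were not used here. A sample with 2 target names in its labels was left out of the comparisons.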

Additional observations from a re-analysis of the deposited data

Results flagged for a closer look

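Several targets had every heat shock library on the same side of every library without heat shock at the ribosome biogenesis promoters, while other targets moved the opposite way. The difference between targets was not tested. The share of members with a peak differed, with minus without heat shock, by -42.0 percentage points for Spt15, -10.7 for Rpb3, -5.36 for Spt16 and -5.36 for Hsf1 with the Gross Lab antibody, and by 5.36 points for Rsc9 and 1.79 for Ubp8. Spt15, Rpb3, Spt16 and this Hsf1 antibody each had 1 heat shock library. A change of 1.79 points is 1 promoter.

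A library outside the comparisons, whose labels name 2 targets, Abf1 in the title and Mot1 in the source name, had peaks at 13 members (23.2%) and 15.7% of the others in a list of 1239 peaks. With no list of an untagged control used here, this was flagged only because it lies above the limit that a count of 0 allows.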

How the results depend on the processing

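Of 189 differences between members and others of the named targets under other settings, 143 moved by less than the spread between libraries, 43 moved further without a change of sign and 3 reversed. The reversed differences between members and others, in percentage points, were 1.11 for Rap1 with a window of 300 bp upstream, -5.09 for Reb1 without promoters that share a divergent window or lie near a tRNA gene, and -1.75 for Cbf1 with the peaks at or above their list's median score. Leaving out 1 replicate kept the sign in 74 of 78 values and reversed 4: the ranges were -0.676 to 2.44 for Reb1, -0.872 to 4.80 for Cbf1, -0.922 to 44.0 for Taf3 and -0.185 to 27.7 for Vps71. The cause of these reversals was not tested, other than that the last 2 rest on 1 library.

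The count of promoters with TFIID higher (304) was 184 with peaks at or above the median score and ran from 138 to 306 when 1 replicate number was left out. SAGA higher (89) was 19 with the 300 bp window, 53 with promoters of at least 1 target and 29 to 89 without 1 replicate. RSC higher (9) was 0 with the 300 bp window, 4 with peaks at or above the median score, 21 with lists of at least 20 peaks, 0 with promoters of at least 1 target and 2 to 8 without 1 replicate. SWI/SNF higher (142) was 30, 94 and 43 to 136 under the 300 bp window, the median score and the leave-out settings. The heat shock counts stayed at 0, from 0 to 0 without 1 replicate. The members' median of 21.5 targets ran from 15 to 21.5 without 1 replicate.

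Replicate numbers in the labels do not mark a shared culture or day, and same-numbered libraries of the TFIID and SAGA classes deviated together with correlations of 0.148, 0.0887 and 0.112, and those of the RSC and SWI/SNF classes with 0.242 and 0.160 over only 2 numbers, so they were not taken as pairs. With the replicate block the counts were 311 and 81 for TFIID and SAGA and 13 and 145 for RSC and SWI/SNF. The lists hold no read depth, so no limit of detection can be given per library.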
